A study of Homo sapiens with 6 samples.

Results

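Messenger RNAs that encode CNBP and 7 other cytoplasmic mRNA-binding proteins were followed in RNA immunoprecipitation sequencing (RIP-seq) of the poly(A)-binding proteins PABPC1 and PABPC4 in HepG2 cells, an established line from a human hepatocellular carcinoma. The 8 genes (CNBP, YBX1, YBX3, ELAVL1, G3BP1, G3BP2, FXR1 and PUM2) were taken by name from 2 deposited tables of 58302 genes each, and each name occurred once in both. The set was chosen by protein family (zinc finger, cold-shock, ELAV, G3BP, FXR and Pumilio) and by the high deposited folds of CNBP over IgG with both antibodies. The values against IgG are therefore a description and carry no test of their own here, whereas the difference between the antibodies was tested.

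Cytoplasmic poly(A)-binding proteins coat the poly(A) tail of mRNAs, promote translation through the cap-binding complex and regulate how the tail is shortened. An immunoprecipitation of such a protein recovers the mRNAs it rides on, directly or in a larger particle. Many other proteins share those mRNAs: cold-shock proteins package them, ELAV and Pumilio proteins read short motifs that stabilise or repress them, and G3BP and FXR proteins gather them in stress granules and other granules.

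Per the labels, the 6 libraries form 3 groups of 2. PABPC1 RIP used a PABPC1 antibody on HepG2 cells that overexpressed PABPC1, and PABPC4 RIP used a PABPC4 antibody on HepG2 cells that overexpressed PABPC4. The rabbit IgG control was made once from each of these overexpressing populations, so no group comes from cells without a transgene. The promoter of the transgenes and the number of clones are not given in the sources used here. Antibody and cell population change together between the RIP groups and cannot be told apart. Unselected RNA was not analysed here, so a larger pool of an mRNA in the lysate and a larger bound share of it cannot be told apart either. The labels do not say that replicates came from separate cultures, so the tests measure only how these libraries vary, which may be technical variation.

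Whole reads per library were recovered from the deposited folds and p-values, without replicate numbers, and the libraries are called A and B within a group. Depth was lowest in IgG, at 133030 and 94235 reads in all, intermediate in PABPC1 RIP, at 289217 and 277552, and highest in PABPC4 RIP, at 850190 and 841327. Genes encoded in the nucleus, outside rRNA, held 51.2% and 56.3% of the PABPC1 reads, 76.6% and 75.1% of the PABPC4 reads, and 36.8% and 38.5% of the IgG reads. These shares count only the 15060 genes whose reads were recovered per library, over all library reads. Genes named as copies of mitochondrial genes were left out of them. Hepatocyte markers had reads for 10 of 10 genes and summed to 6680 to 7494 reads per 1000000 library reads (RPM) with PABPC1, 9034 to 9668 with PABPC4 and 4202 to 4307 with IgG, with 1 gene, TTR, at 0 in both IgG libraries. Summed blood cell markers went the other way, at 1348 to 1470, 604 to 759 and 3713 to 3799 RPM. Of these genes LYZ (1.16-fold with PABPC1 and 1.02-fold with PABPC4) and CD74 (1.12-fold and 1.06-fold) did not stand below IgG by the deposited fold. The authors' deposited table called 4 of 10 blood markers lower with PABPC1 and 8 of 10 with PABPC4, and called 2 of 10 and 6 of 10 hepatocyte markers higher. Over all genes with a p-value, 0.194% and 0.9% were called lower and 1.34% and 5.54% higher. The 9 hepatocyte markers with at least 90 reads had median folds of 1.38 and 2.08, against 1.48 and 2.10 over the 4085 genes of that depth. They stood near the typical gene, and the sums above do not allow for the differing nuclear-encoded share. The mRNA of PABPC1 stood at 595 and 634 RPM in PABPC1 RIP and at 590 and 676 in PABPC4 RIP, and that of PABPC4 at 111 and 155 against 162 and 183, values that do not measure the overexpression since only bound RNA was sequenced.

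CNBP was the member recovered most over IgG with both antibodies, and the member that differed most between them. It encodes a protein with repeated CCHC zinc knuckles that binds G-rich stretches of single-stranded nucleic acid and supports translation (GRCh38, chr3:129167827-129183896, counted exon length 1927 nt). PABPC1 RIP held 221 reads in library A and 222 in library B, which is 764 and 800 RPM. PABPC4 RIP held 294 and 345 reads, or 346 and 410 RPM. IgG held 9 and 4 reads, or 67.7 and 42.4 RPM. The 3 groups did not overlap: every PABPC1 library stood above every PABPC4 library, and every PABPC4 library above both IgG libraries.

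In the authors' deposited table CNBP was 14.2-fold higher with PABPC1 than with IgG (adjusted p = 1.7e-30) and 6.86-fold higher with PABPC4 (adjusted p = 1.9e-12). From the summed reads, the exact 95% counting interval of the ratio was 7.91 to 25.9 with PABPC1 and 3.83 to 12.5 with PABPC4. The intervals are wide because only 13 IgG reads lie under both ratios, and they cover counting error only. Among 4085 genes with at least 90 reads over the 6 libraries, the depth of the least-read member, CNBP ranked 20 by the deposited fold with PABPC1 and 104 with PABPC4. Per 1000000 nuclear-encoded reads, CNBP stood at 1493 and 1421 with PABPC1, at 452 and 546 with PABPC4, and at 184 and 110 with IgG, so the order of the groups was the same.

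**Figure D1:**
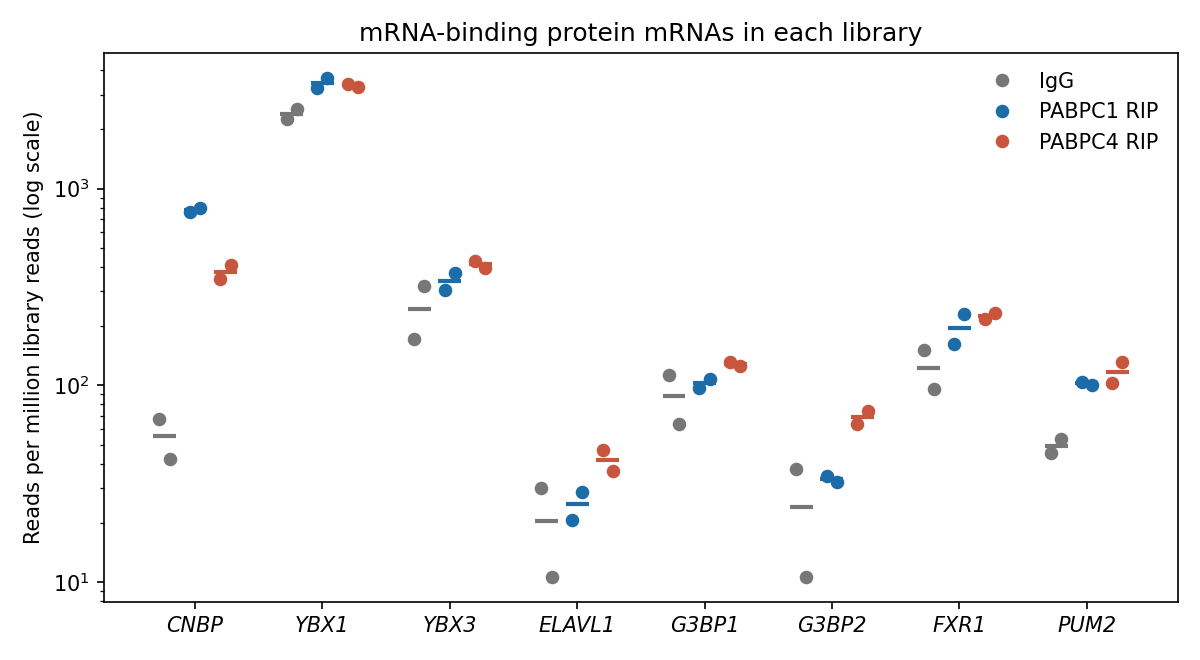
RPM, reads per 1000000 library reads (log axis), of the 8 mRNAs in each of the 6 libraries, with 1 point per library and a bar at the group mean. CNBP is the gene whose 3 groups lie farthest apart, from 42.4 in IgG library B to 800 in PABPC1 library B.

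YBX1 and YBX3 encode cold-shock domain proteins that coat mRNA in the cytoplasm and repress or store it. YBX1 (chr1:42682418-42703805, 1930 nt counted) was the most abundant member in every library. It had 3233 and 3650 RPM with PABPC1, 3393 and 3298 with PABPC4, and 2263 and 2526 with IgG. Both RIPs stood above both IgG libraries and overlapped each other. The depth was 1948, 5660 and 539 summed reads, which makes YBX1 the most precisely measured member.

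In the authors' deposited table YBX1 was 1.44-fold higher with PABPC1 (adjusted p = 1.7e-11) and 1.40-fold higher with PABPC4 (adjusted p = 3.0e-12), directions that rest on scaling by library totals. With totals over nuclear-encoded genes the folds were 1.00 and 0.692, and with median-of-ratios scaling, which sets the typical gene equal between libraries, 1.03 and 0.725. Under both of these scalings the repeated calculation called YBX1 lower than IgG with PABPC4 (adjusted p = 4.3e-13 and 9.3e-10). YBX1 has processed pseudogenes whose reads may be shared with it. YBX1P1 held 78 PABPC1, 201 PABPC4 and 29 IgG reads and YBX1P10 held 58, 173 and 21, so the split of reads between them and YBX1 is uncertain.

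YBX3 (chr12:10699089-10723323, 8610 nt counted) had 304 and 371 RPM with PABPC1, 428 and 397 with PABPC4, and 173 and 318 with IgG. PABPC4 stood above both IgG libraries, while PABPC1 library A fell below IgG library B. The IgG libraries differed 1.84-fold from each other. In the authors' deposited table YBX3 was 1.37-fold higher with PABPC1 (adjusted p = 0.463) and 1.68-fold higher with PABPC4 (adjusted p = 0.00182), and it stood at 0.961 and 0.831 under nuclear-encoded totals. Without IgG library A the PABPC4 fold was 1.30 and the call was lost.

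ELAVL1 encodes HuR, which binds AU-rich elements and stabilises mRNAs (chr19:7958573-8005641, 6956 nt counted). It was the least-read member, with 6 and 8 reads with PABPC1, 40 and 31 with PABPC4, and 4 and 1 with IgG. These are 20.7 and 28.8, 47.0 and 36.8, and 30.1 and 10.6 RPM. PABPC4 lay above the other libraries, and PABPC1 lay inside the IgG range. The authors' deposited table gave ELAVL1 folds of 1.22 with PABPC1 (adjusted p = 1) and 2.06 with PABPC4 (adjusted p = 0.866). Without IgG library A the ELAVL1 folds were 2.33 and 3.94, and without IgG library B 0.823 and 1.39. With 5 IgG reads the 95% counting interval of the PABPC4 ratio ran from 0.780 to 6.06, so a difference of the size of the median gene could not be told from none at this depth.

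G3BP1 and G3BP2 encode the paralogous proteins that nucleate stress granules when translation stops. G3BP1 (chr5:151771954-151812785, 12406 nt counted) had 96.8 and 108 RPM with PABPC1, 132 and 125 with PABPC4, and 113 and 63.7 with IgG. G3BP2 (chr4:75642786-75724437, 7183 nt counted) had 34.6 and 32.4 with PABPC1, 63.5 and 73.7 with PABPC4, and 37.6 and 10.6 with IgG. For both paralogues PABPC4 lay above IgG and PABPC1 lay inside the IgG range.

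For G3BP1 the authors' deposited table gave 1.16-fold with PABPC1 (adjusted p = 1) and 1.45-fold with PABPC4 (adjusted p = 0.811). For G3BP2 the authors' deposited table gave 1.39-fold (adjusted p = 1) and 2.84-fold (adjusted p = 0.239), the highest PABPC4 fold of the members after CNBP. The G3BP2 value rests on 6 IgG reads, 5 in library A and 1 in library B, and its 95% counting interval was 1.16 to 7.22. Without IgG library A the G3BP2 folds were 3.15 with PABPC1 and 6.44 with PABPC4, and without IgG library B 0.890 and 1.82. The PABPC1 fold of G3BP1 also turned without IgG library B, to 0.908.

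FXR1 encodes a KH domain protein related to FMRP that acts in mRNA granules and translation (chr3:180912670-180982753, 12054 nt counted). It had 163 and 231 RPM with PABPC1, 216 and 234 with PABPC4, and 150 and 95.5 with IgG. Both RIPs stood above IgG without overlap, PABPC1 library A only narrowly. The authors' deposited table gave FXR1 1.60-fold with PABPC1 (adjusted p = 0.696) and 1.83-fold with PABPC4 (adjusted p = 0.0544), and the PABPC4 value was 0.907 under nuclear-encoded totals.

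PUM2 encodes a Pumilio protein that binds a short motif and recruits deadenylation (chr2:20248691-20352253, 6978 nt counted). It had 104 and 101 RPM with PABPC1, 102 and 131 with PABPC4, and 45.1 and 53.1 with IgG. The RIPs overlapped each other and stood clear of IgG. PUM2 was 2.08-fold higher with PABPC1 (adjusted p = 0.558) and 2.37-fold higher with PABPC4 (adjusted p = 0.0697) in the authors' deposited table, and its folds stayed above 1 under nuclear-encoded totals, at 1.46 and 1.17. FXR1 and PUM2 both missed the threshold with PABPC4 and passed it without PABPC4 library A, at 1.90-fold (adjusted p = 0.0309) and 2.66-fold (adjusted p = 0.0206) when the authors' calculation was repeated.

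At an adjusted p under 0.05, the authors' deposited table for PABPC1 called 2 of 8 members higher, CNBP and YBX1, where 1.34% of the 17565 genes with a p-value were called higher and 0.194% lower. For PABPC4 it called 3 of 8 higher, CNBP, YBX1 and YBX3, where 5.54% of 21455 genes were called higher and 0.9% lower. Nothing is read from these counts, since the choice of members used these contrasts and a call depends on depth: among the 4085 genes as deep as the members, 5.68% and 29.0% were called higher. By RPM, PABPC1 libraries did not overlap IgG in 4 of 8 members (CNBP, YBX1, FXR1 and PUM2), and PABPC4 libraries did not overlap IgG in 8 of 8. By the same measure 53.8% of the 4085 genes stood above both IgG libraries with PABPC1 and 83% with PABPC4, so neither count is a result about the members. The median deposited fold of the 8 members was 1.41 with PABPC1 and 1.95 with PABPC4, against 1.48 and 2.10 over the 4085 genes.

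**Figure D2:**
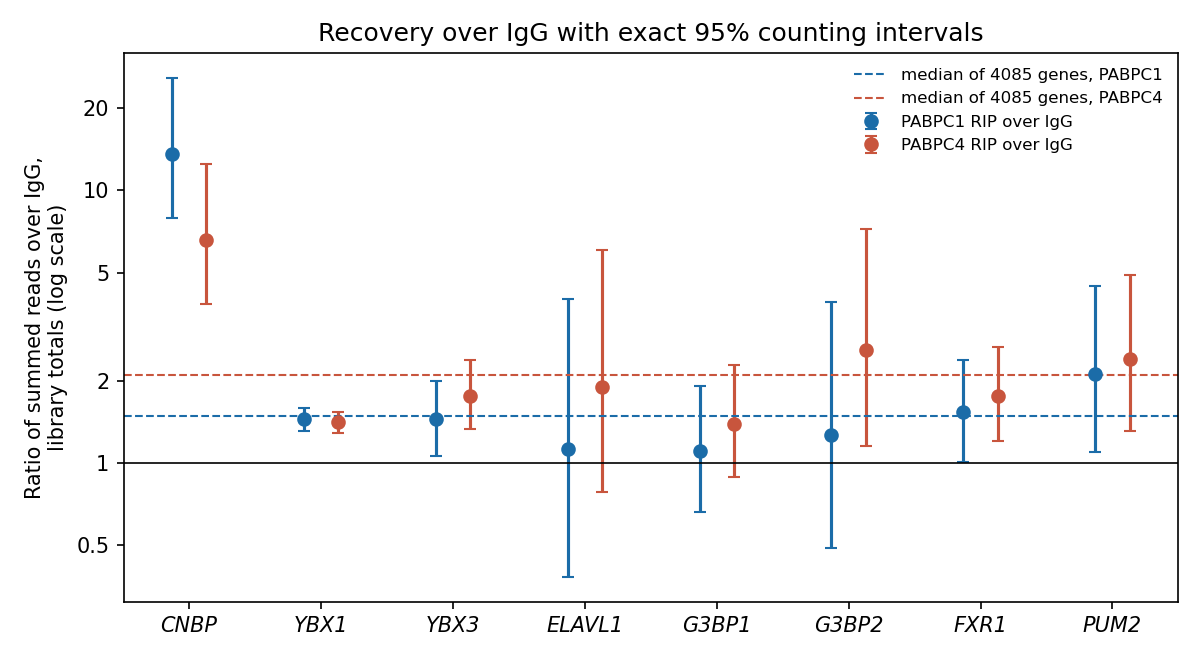
Ratio of summed reads, RIP over IgG, scaled by library totals (log axis), for each member and antibody, with exact 95% counting intervals and dashed lines at the median deposited folds of 4085 genes. The CNBP intervals, 7.91 to 25.9 and 3.83 to 12.5, lie above both medians, while the narrow YBX1 interval with PABPC4, 1.29 to 1.54, lies below the PABPC4 median.

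How many members stood above IgG depended on the scaling. By library totals all 8 had a fold above 1 with each antibody, and by nuclear-encoded totals or median-of-ratios 4 of 8 did. The typical gene moved with them: the median fold of the 4085 genes was 1.48 with PABPC1 and 2.10 with PABPC4 by library totals, 1.04 and 1.04 by nuclear-encoded totals, and 1.07 and 1.09 by median-of-ratios. CNBP was called under both other scalings and was the only member called higher there, at 9.93-fold and 10.2-fold with PABPC1 and at 3.40-fold and 3.56-fold with PABPC4. Over all genes, PABPC1 calls went from 235 higher and 34 lower by library totals to 24 and 83 by nuclear-encoded totals, and PABPC4 calls from 1188 and 193 to 100 and 479.

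**Figure D3:**
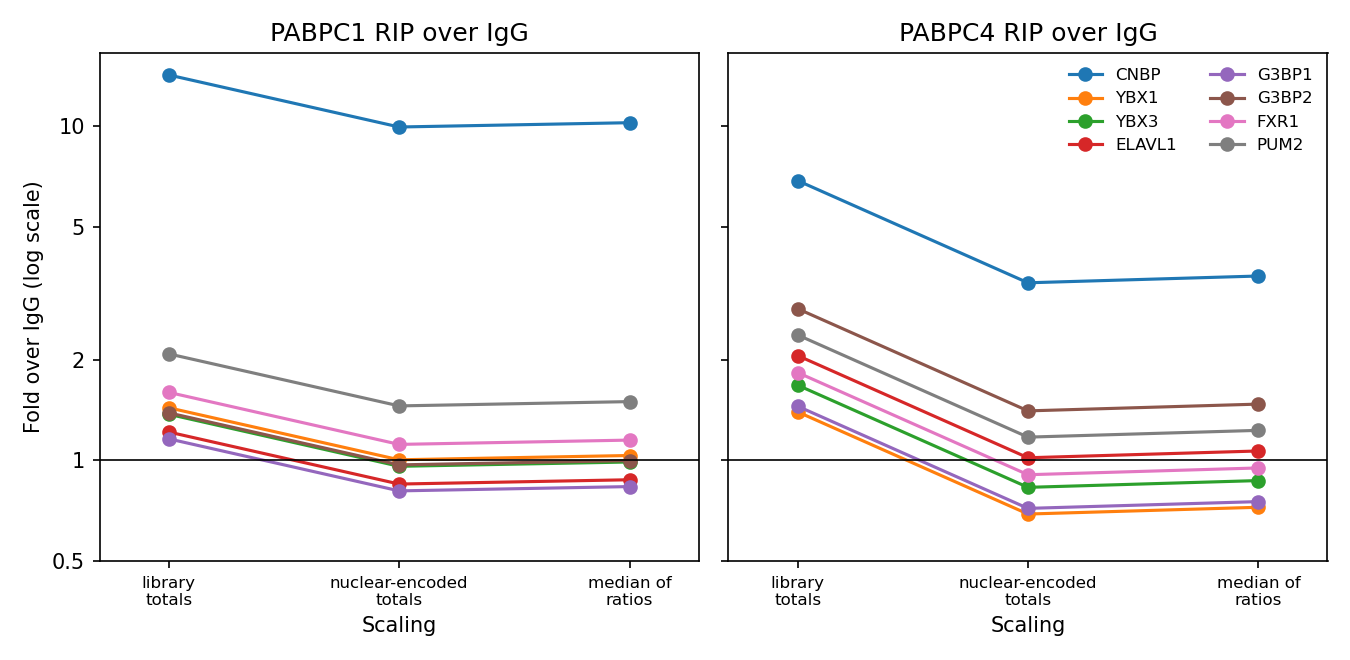
Fold of each member over IgG (log axis) with PABPC1 (left) and PABPC4 (right) by library totals as deposited, by totals over nuclear-encoded genes and by median-of-ratios. CNBP stays above 3-fold in every panel, while YBX1 with PABPC4 crosses from 1.40 to 0.692 and 0.725.

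Levels of different mRNAs were set side by side per length, as RPM per kilobase of counted exon (RPKM). With PABPC1, YBX1 stood at 1783 ± 153 (SD, n = 2) and CNBP followed at 406 ± 13.1. YBX3 was at 39.2 ± 5.49, FXR1 at 16.3 ± 3.99, PUM2 at 14.7 ± 0.288, G3BP1 at 8.26 ± 0.643, G3BP2 at 4.66 ± 0.212 and ELAVL1 at 3.56 ± 0.821. FXR1 and PUM2 overlapped and are not ordered, and the values of the other neighbours did not overlap. The SD of 2 libraries can lie below counting error, so this does not order members with few reads. G3BP2 had 10 and 9 PABPC1 reads and ELAVL1 6 and 8. Their 95% counting intervals overlapped, at 4.80 to 18.4 against 2.20 to 13.1 reads in library A, and these members are not ordered. With PABPC4 the order of the means was the same, with YBX1 at 1734 ± 34.8, CNBP at 196 ± 23.6 and ELAVL1 lowest at 6.03 ± 1.04. There FXR1 overlapped PUM2, and G3BP1, at 10.3 ± 0.395, overlapped G3BP2, at 9.55 ± 1.00.

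With IgG fewer neighbours below YBX1 were separated by RPKM. YBX1 was at 1240 ± 96.3, whereas CNBP, at 28.6 ± 9.25, was level with YBX3, at 28.5 ± 11.9. G3BP1 (7.11 ± 2.80) overlapped both FXR1 (10.2 ± 3.22) and PUM2 (7.03 ± 0.806), and stood level with PUM2, which was above it in both RIPs. G3BP2 (3.35 ± 2.66) and ELAVL1 (2.92 ± 1.98) overlapped as well. The counted lengths are those the deposited folds imply, and an mRNA whose main isoform is shorter than its counted length is understated per length.

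PABPC4 RIP was then set against PABPC1 RIP, a difference in which the shared IgG libraries play no direct part. Relative to the typical gene, less CNBP and less YBX1 mRNA was recovered with PABPC4 than with PABPC1, and the other 6 members did not pass the test. By limma's voom test over 7965 genes with Benjamini-Hochberg adjustment, under median-of-ratios scaling, 2 of 8 members passed, both lower with PABPC4. Of all genes tested, 2.28% were lower with PABPC4 and 2.13% higher. By library totals the same test gave 53 lower and 1108 higher instead of 182 and 170, with the median gene at 0.45 in place of -0.03 on the log2 scale.

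CNBP had a log2 PABPC4 over PABPC1 of -1.53 (SE 0.11, 95% interval -1.75 to -1.31, limma adjusted p = 4.4e-14), and the difference held in both libraries of each group. With limma-trend, which models the spread differently, the log2 value was the same and the adjusted p was 0.0011, so the size of the p-value depends on the model. CNBP ranked 12 from the bottom among 4085 genes. By library totals the log2 value was -1.05, and the ratio of summed reads was 0.483 (exact 95% counting interval 0.427 to 0.547). Leaving out 1 library at a time gave log2 values between -1.60 and -1.35, with a highest limma adjusted p of 0.0186. Blood cell markers fell with PABPC4 too, 7 of 8 tested. Their summed RPM was highest in IgG, where CNBP was lowest, while LYZ, which was among the 7, and CD74 were not lower than IgG. The part of blood cell RNA in the result was not tested. The median log2 value of 1148 genes of 1000 to 3000 nt counted, a range that holds CNBP, was -0.02, and the part of transcript length in the result was not tested.

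YBX1 had a log2 PABPC4 over PABPC1 of -0.51 (SE 0.04, 95% interval -0.60 to -0.43, limma adjusted p = 2.1e-12). This is a difference from the typical gene and not in the share of the library: by library totals the log2 value was -0.04 (limma adjusted p = 0.672), and the RPM of the groups overlapped. With limma-trend under median-of-ratios scaling the log2 value was -0.51 (adjusted p = 0.0022). Without PABPC1 library B it was -0.49 and missed the threshold (limma adjusted p = 0.0611), a setting in which the calls over all genes also dropped, to 1 higher and 10 lower. Without PABPC1 library A there were 6 and 13.

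**Figure D4:**
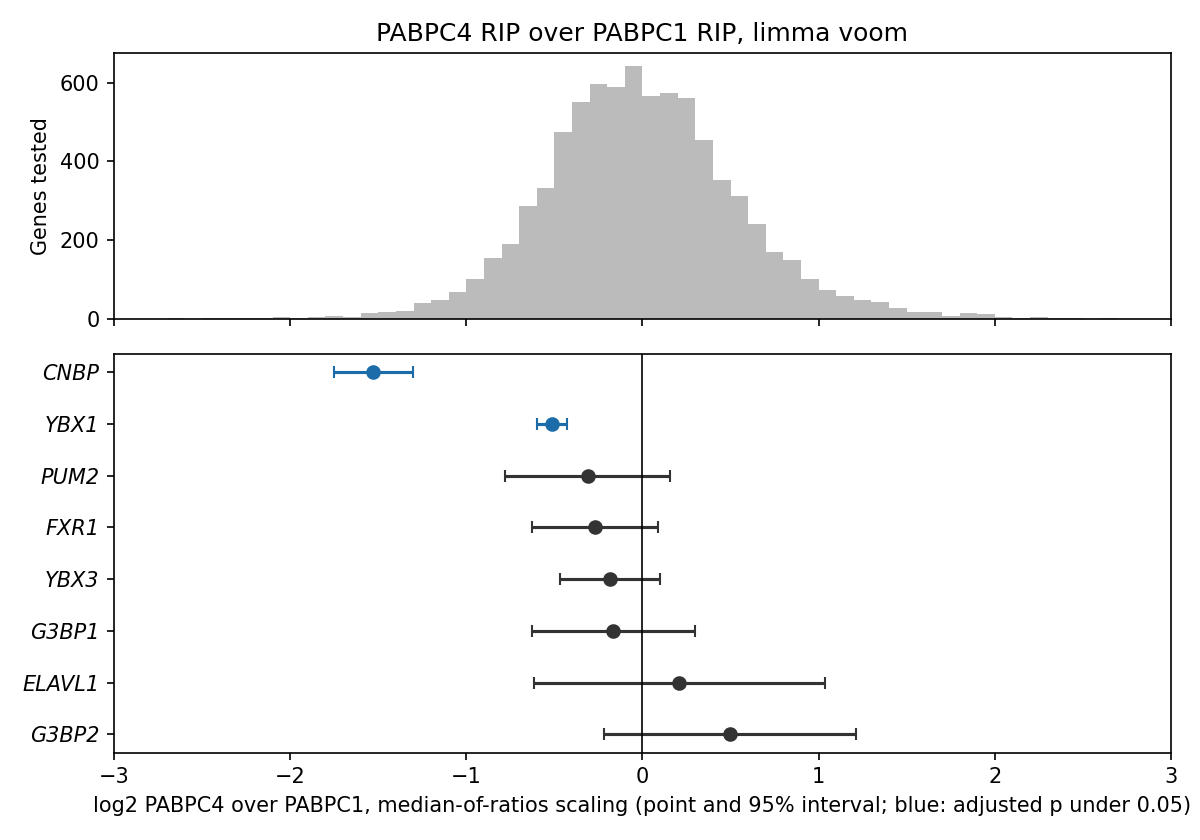
Log2 PABPC4 RIP over PABPC1 RIP under median-of-ratios scaling, as a histogram over the 7965 genes tested (top) and for the 8 members with 95% intervals (bottom, blue where the adjusted p is under 0.05). CNBP at -1.53 and YBX1 at -0.51 lie below 0 with their whole intervals, and YBX1 reaches -0.04 by library totals.

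The intervals of the other members included 0. FXR1 was at -0.27 (95% interval -0.63 to 0.09, limma adjusted p = 0.487) and PUM2 at -0.31 (-0.78 to 0.16, limma adjusted p = 0.558). YBX3 was at -0.19 (-0.47 to 0.10, limma adjusted p = 0.567) and G3BP1 at -0.17 (-0.63 to 0.30, limma adjusted p = 0.782). The members with the largest positive values were those with the fewest PABPC1 reads: G3BP2 at 0.50 (-0.22 to 1.21, limma adjusted p = 0.532) and ELAVL1 at 0.21 (-0.62 to 1.04, limma adjusted p = 0.860). None of the 6 intervals reached the CNBP interval, whose upper bound was -1.31. Values by library totals lay higher, with YBX3 at 0.29, FXR1 at 0.21, PUM2 at 0.16 and G3BP1 at 0.31, so the sign of these 4 members depended on the scaling.

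Across the 6 libraries the genes most like CNBP were not members. By the root mean square difference of log2(RPM + 1), each centred on its own mean, among 3139 genes with at least 20 reads on average per library, the nearest were PSMD7 (0.336), a proteasome lid subunit, FKBP2 (0.365), an endoplasmic reticulum prolyl isomerase, and SOBP (0.405). PSMD7 had 107 and 119 RPM with PABPC1, 76.5 and 84.4 with PABPC4, and 15.0 and 10.6 with IgG. The 3 genes had 3, 2 and 4 summed IgG reads, so their likeness to CNBP in IgG rests on few reads. The nearest member was PUM2, at 1.17, and ELAVL1 had too few reads to be compared.

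Other genes for mRNA-binding proteins were counted in 7 lists of 73 genes, 66 of which had a read. The authors' deposited table called 4 of them higher with PABPC1 and 17 with PABPC4, all by library totals, and 1 with each antibody was called by nuclear-encoded totals. Of the 4085 genes as deep as the members, 5.68% and 29.0% were called higher by library totals. At the members' depth their median fold was 1.52 and 2.11, against 1.48 and 2.10 over all genes, so these lists as a whole stood at the typical gene. Between the antibodies, 2 of 59 tested passed by limma, both lower with PABPC4: TRIM71 at -0.72 (adjusted p = 0.00945) and MEX3A at -1.08 (adjusted p = 0.0374), named after their values were seen.

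Of 9 ELAV and AU-rich element binding genes with a p-value, the authors' deposited table called 1, HNRNPD, an mRNA decay factor, at 2.10-fold with PABPC4. Of 10 stress granule partners of G3BP it called 1 with PABPC1 and 4 with PABPC4. Nothing is read from the counts of single lists, since 5.68% and 29.0% of the 4085 genes of the members' depth were called higher. A called gene can also lie at or below the median PABPC4 fold of 2.10. SERBP1, a ribosome-associated mRNA-binding protein, was at 1.62-fold and 2.53-fold in the authors' deposited table. CAPRIN1, which binds G3BP directly, was at 2.11-fold, LSM14A at 1.82-fold and ATXN2 at 2.81-fold with PABPC4 in the authors' deposited table.

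Relatives of FXR1, PUM2 and CNBP were counted the same way, beside the same 5.68% and 29.0% of genes at depth, and nothing is read from these counts either. Of 4 FMRP relatives and partners, the authors' deposited table called FMR1 alone, at 1.79-fold with PABPC4. Of 5 genes in the Pumilio list, not all of them known relatives or partners, it called PUM3 alone, at 3.29-fold with PABPC4 in the authors' deposited table. Among 9 CCHC zinc finger genes, the domain class of CNBP, the authors' deposited table called 2 with PABPC4, ZCCHC17 at 3.80-fold and ZCRB1 at 3.12-fold. ZCCHC13, the paralogue of CNBP, had no read in any library.

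The longest list held KH, Musashi, Staufen and CPEB genes together with PUR, RBMS, LARP and SYNCRIP genes. Of its 24 genes with a p-value, 2 were called with PABPC1 and 7 with PABPC4 in the authors' deposited table. Beside them stand 5.68% and 29.0% of all genes of the members' depth. IGF2BP2, which protects its target mRNAs from decay, was at 2.89-fold and 3.87-fold in the authors' deposited table. MSI2, a Musashi translation regulator, was called with both antibodies and stood at 2.11-fold with PABPC4 in the authors' deposited table. CPEB4 (2.57-fold), which controls cytoplasmic polyadenylation, and STAU1 (1.79-fold), which binds double-stranded mRNA, were called with PABPC4 in the authors' deposited table. None of the called genes named from these 7 lists reached the CNBP fold with either antibody. Some genes that were not called exceeded it on few IgG reads. FXR2 was at 7.51-fold with PABPC4, on 1 IgG read. MEX3B, with 0 IgG reads, was at 324-fold and 298-fold, values set by the 0.005 added to the IgG mean.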

How the data were processed

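RIP-seq of PABPC1 and PABPC4 in HepG2 cells, with rabbit IgG controls, gave 6 libraries in 3 groups of 2. Deposited by the authors were 2 tables, 1 per antibody against IgG, with a fold (a linear ratio), a p-value and an adjusted p-value for each of 58302 genes, and 0 columns of single libraries. Per the submitters' processing notes, the tools were featureCounts 2.0.1, STAR 2.7.10a and Bowtie2 2.4.1, with hg38 and GRCh38 as builds and no roles given. Strand-specific counting is not stated in the sources used here. From the values, the deposited p-value is that of R's chi-square test, Yates-corrected, on reads summed over libraries, which covers counting error only. The deposited fold is mean RIP RPKM divided by mean IgG RPKM plus 0.005, and both tables used the same pooled IgG.

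Whole reads were recovered by inverting these formulas: summed reads for 22570 of 22607 genes with a read, and reads per library for 15060, with 37 genes not recovered. Recomputed p-values differed from the deposited ones by a log ratio of at most 9.7e-14. For 4193 of 4193 genes without IgG reads the implied length was a whole number of nucleotides within 0.001. The scripts were tested on simulated data.

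PABPC4 was compared with PABPC1 by limma 3.58.1 (voom, R 4.3.3) on genes that reached 10 reads in 2 or more libraries, all 3 groups in 1 fit, with median-of-ratios scaling and Benjamini-Hochberg adjustment over all genes tested at 0.05. Count intervals are exact. Median-of-ratios was computed over all 6 libraries. Gene positions are those of RefSeq on GRCh38.p14. The alternatives were other scalings, filters and models, Fisher's exact test, and leaving out each library.

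The members and gene lists were chosen with earlier results of these data known. Text names all members, list genes called in either deposited table (at most the 4 with the lowest adjusted p per list and table) and the 3 genes most like CNBP. TRIM71, MEX3A, FXR2, MEX3B, LYZ and CD74 were named after their values were seen. The result of 1 list is not reported here.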

Additional observations from a re-analysis of the deposited data

Results flagged for a closer look

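The recovery of 2 members differed between the antibodies by a test of the difference itself. CNBP had a log2 PABPC4 over PABPC1 of -1.53 (limma adjusted p = 4.4e-14), with 764 and 800 reads per 1000000 library reads in the PABPC1 libraries and 346 and 410 in the PABPC4 libraries. YBX1 had a log2 value of -0.51 (limma adjusted p = 2.1e-12), which was -0.04 by library totals. Antibody and overexpressing population differ together in both cases and cannot be told apart.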

How the results depend on the processing

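The CNBP call held under every alternative run: folds of 9.93 to 18.4 with PABPC1 and 3.40 to 8.90 with PABPC4 over 8 alternatives each, and log2 PABPC4 over PABPC1 of -1.60 to -1.05 over 13. With PABPC1, members called higher went from 2 to 1 under nuclear-encoded totals and under median-of-ratios, and were 2 without each library in turn. With PABPC4 they went from 3 to 1 under either scaling, to 5 under Fisher's exact test and with at least 10 summed reads, and ranged from 2 to 5 without 1 library. Both scalings reversed YBX1 with PABPC4 into a call lower than IgG (0.692 and 0.725), and turned YBX3 to 0.831 and 0.871 without a call. By library totals the log2 PABPC4 over PABPC1 turned positive, without a call, for YBX3 (0.29), G3BP1 (0.31), FXR1 (0.21) and PUM2 (0.16). Between antibodies, 2 members passed, 1 by library totals and 1 to 2 without 1 library. The 7 lists went from 4 calls with PABPC1 to 1 under either scaling (0 to 6 without 1 library), from 17 with PABPC4 to 1 under either scaling (5 to 18), and between antibodies from 2 to 8 by library totals, 0 under limma-trend and 5 with RIP libraries only (0 to 4). Over all genes, calls higher than IgG without 1 library ranged from 47 to 270 with PABPC1 and from 408 to 1249 with PABPC4, lowest in both without IgG library A, and limma-trend called 31 higher and 52 lower with PABPC4. Of the member values, 62 of 64, 55 of 64 and 98 of 100 kept their call or lack of one, while 11, 8 and 4 turned direction. The 55 include YBX1 where its call was reversed. The cause of these shifts was not tested. ELAVL1 and G3BP2 had too few reads for 3 and 1 of the 13 settings. No paired analysis was possible because the recovered libraries carry no replicate numbers. IgG depth (5 to 53 summed reads for 7 of the 8 members) limits both comparisons with IgG.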
